A study of Rattus norvegicus with 196 samples.

Results

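The libraries labelled PVN and VMH of untreated (Sham) rats were set against each other, pair by pair. They were selected by treatment and brain region in the labels, which gave 8 of the 196 samples of the series, 4 for each region, with the replicate numbers 1, 3, 4 and 5 in both. Sham rats drank water without drug for 6 weeks, and the fluoxetine-treated (FT) rats that enter below received 18 mg/kg body weight of the drug, an inhibitor of serotonin reuptake, for as long. The animals were male Long-Evans rats, 2 months old at treatment and otherwise naive. Each sample was a pool of tissue punched from frozen sections of 10 of the 40 animals in a treatment group, so a punch holds whatever lies inside its rim and the spread between replicates is a spread between pools. VMH is the ventromedial nucleus of the hypothalamus. The labels give the other region only as PVN, an abbreviation in use for paraventricular nuclei of both hypothalamus and thalamus, and the study's list of regions places it in the thalamus. Total counts on transcripts ran from 5334038 to 14617929 per Sham library.

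The paraventricular thalamus is a midline nucleus under the roof of the third ventricle, beside the habenula and close to the choroid plexus. Its neurons are glutamatergic, many carry calcium-binding proteins, and like other thalamic relay neurons they express the transcription factor Tcf7l2. The VMH lies at the base of the brain near the arcuate nucleus and is known for its part in feeding, glucose balance, mating and defence. The hypothalamus around both VMH and the hypothalamic paraventricular nucleus holds many small populations of neurons that make neuropeptides, among them vasopressin (Avp) and oxytocin (Oxt), which are the classical markers of the hypothalamic paraventricular and supraoptic nuclei.

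Both libraries of replicate 3 stood apart. Their 50 most abundant transcripts took 63.6% of the counts in PVN and 71.8% in VMH, against 27.2% to 37.2% in the other 6 Sham libraries, and their totals of 5334038 and 5941005 were the lowest. The raw reads of the VMH library of replicate 1 are described in its label as corrupted, while its count table is complete. Results that rest on replicate 3 are therefore given with and without it.

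PVN and VMH differed in a large set of transcripts. Of 13763 transcripts with enough counts, 1727 (12.5%) were called by edgeR's quasi-likelihood test, with p-values adjusted after Benjamini and Hochberg, at 0.1 or below and a fold change of at least 1.25. PVN was higher for 1012 of them (7.35% of those tested) and VMH for 715 (5.2%), and 1670 of the 1727 had the same direction in all 4 pairs. Large differences lay mostly on the side of PVN, with 754 called transcripts at least 2-fold higher in PVN and 273 at least 2-fold higher in VMH (7.46% of those tested in all). At 16-fold or more there were 58 and 8. In 4.54% of transcripts tested every PVN library lay above every VMH library, and in 2.69% every VMH library lay above. The replicate number entered the test as a block, and 376 transcripts (314 higher in PVN and 62 higher in VMH) were called without it. Of the calls among the transcripts picked for description, 38 were lost without the block. Leaving out replicate 3 gave 737 higher and 317 lower in PVN, and leaving out replicate 5 gave 561 and 305. A joint fit with the FT libraries gave 1181 higher and 1219 lower in PVN. All log2 fold changes (log2FC) below are PVN minus VMH, followed by ± their standard error. Levels are CPM on the TMM scale, that is, counts scaled to library size times a TMM factor. That factor was 0.62 in PVN and 0.404 in VMH for replicate 3, against 0.91 to 1.59 in the other Sham libraries of PVN and VMH. The CPM of replicate 3 are raised by this scaling. Tissue pools cannot show whether a lower level means fewer cells of a type or less RNA per cell.

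**Figure D1:**
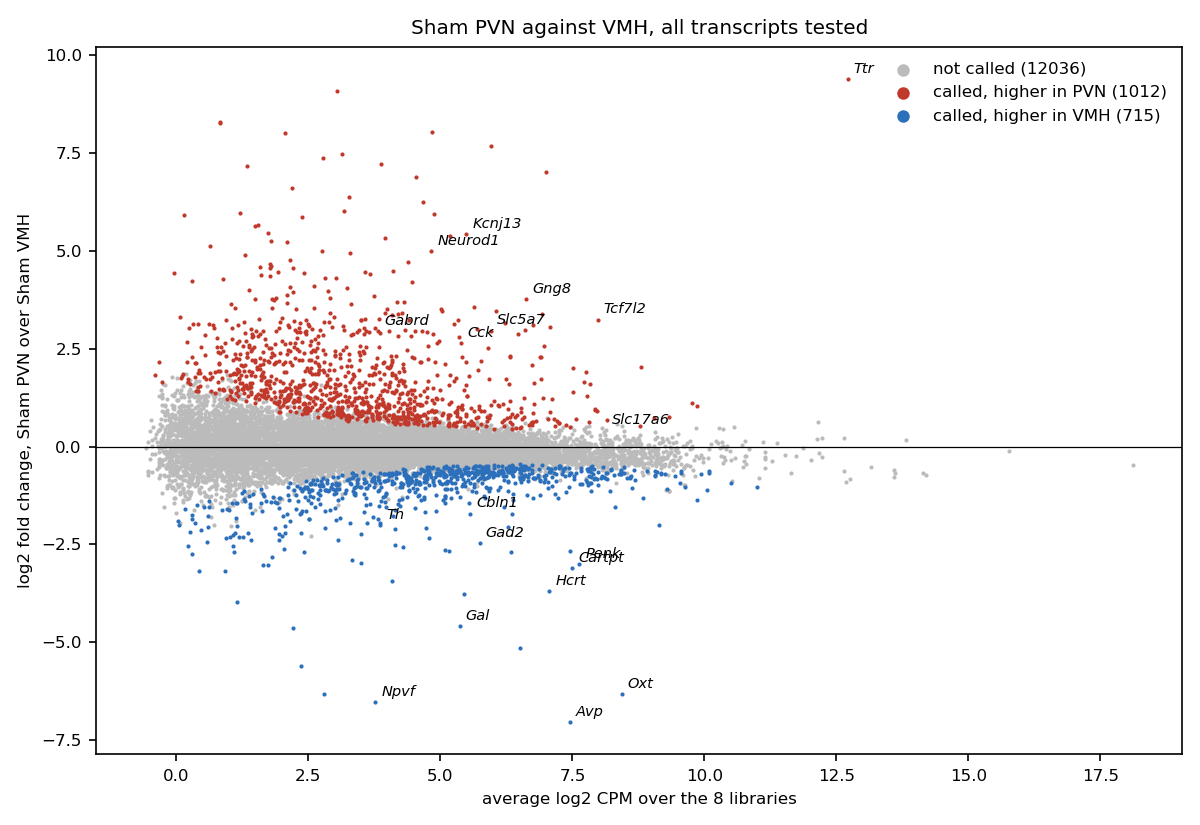
Log2 fold change of Sham PVN over Sham VMH (vertical axis) against the average log2 CPM over the 8 libraries (horizontal axis), 1 point for each of the 13763 transcripts tested. The 1012 red points were called higher in PVN, with Ttr at the top, and the 715 blue points were called higher in VMH, with Avp, Npvf and Oxt at the bottom.

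Only a part of these transcripts can be named. The study pairs 1844 of the 29188 transcripts in the files with a symbol, in a table of transcripts that it called for fluoxetine in more than 1 region, so the genes below are a selection made for another question. Of the named transcripts, 1833 were tested and 265 called, 113 higher in PVN and 152 higher in VMH. That is 14.5%, beside 12.5% of all transcripts. Both shares are the background for every count of list members called below. Nr5a1, Crh and many further markers of these nuclei have no name in that table and were not analysed here.

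Several thalamic genes were higher and most hypothalamic peptide genes tested were lower in the PVN libraries than in the VMH libraries. Of 18 genes listed for the hypothalamic paraventricular nucleus, 6 had an identifier and were tested. Avp, Oxt, Penk, Sst and Cartpt were called lower in PVN, none was called higher, and Calcrl, a receptor for calcitonin family peptides, did not pass (log2FC: -0.38 ± 0.44, adjusted p = 0.671). Their median log2FC was -3.06, beside -0.04 over all transcripts. Their summed level was 46.2 to 175 CPM in PVN and 236 to 5467 CPM in VMH, and without replicate 3 it was 46.2 to 93.5 and 236 to 772 CPM. In 3 of the 4 PVN libraries Avp lay between 0 and 0.414 CPM and Oxt between 0 and 0.552 CPM. These defining markers were thus at or near 0 outside replicate 3.

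Of 23 thalamic genes, 7 were tested, and Tcf7l2, Rora, Cck, Necab1 and Plekhg1 were called higher in PVN. Drd2 was called lower, and Slc17a6, the vesicular glutamate transporter of subcortical neurons, did not pass (log2FC: 0.43 ± 0.19, adjusted p = 0.207). The median log2FC of these 7 was 1.73. Without replicate 3 Tcf7l2 and Cck were still called higher and Drd2 lower, and the other 4 were not called. Their sum reached 778 to 997 CPM in PVN, above the 249 to 403 CPM in VMH. In the mediodorsal thalamus (MDT), with the same Sham replicate numbers, it was higher, at 1197 to 4086 CPM (1197 to 1717 CPM without replicate 3).

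Across the 5838 most abundant transcripts, the mean log2 profile of PVN had its highest Pearson r with habenula (HB), at 0.967, followed by MDT (0.945), lateral hypothalamus (LH, 0.934), medial preoptic area (mPoA, 0.933), VMH (0.925) and arcuate nucleus (Arc, 0.844). Pairs of libraries with the same number spanned 0.904 to 0.980 for PVN with HB and 0.897 to 0.942 for PVN with MDT, so these neighbours in the order overlap. For VMH the order began with LH (0.979) and mPoA (0.973). The profiles share their annotation and counting, Arc has 2 Sham libraries where the others have 4, and r across transcripts serves here as a description.

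**Figure D2:**
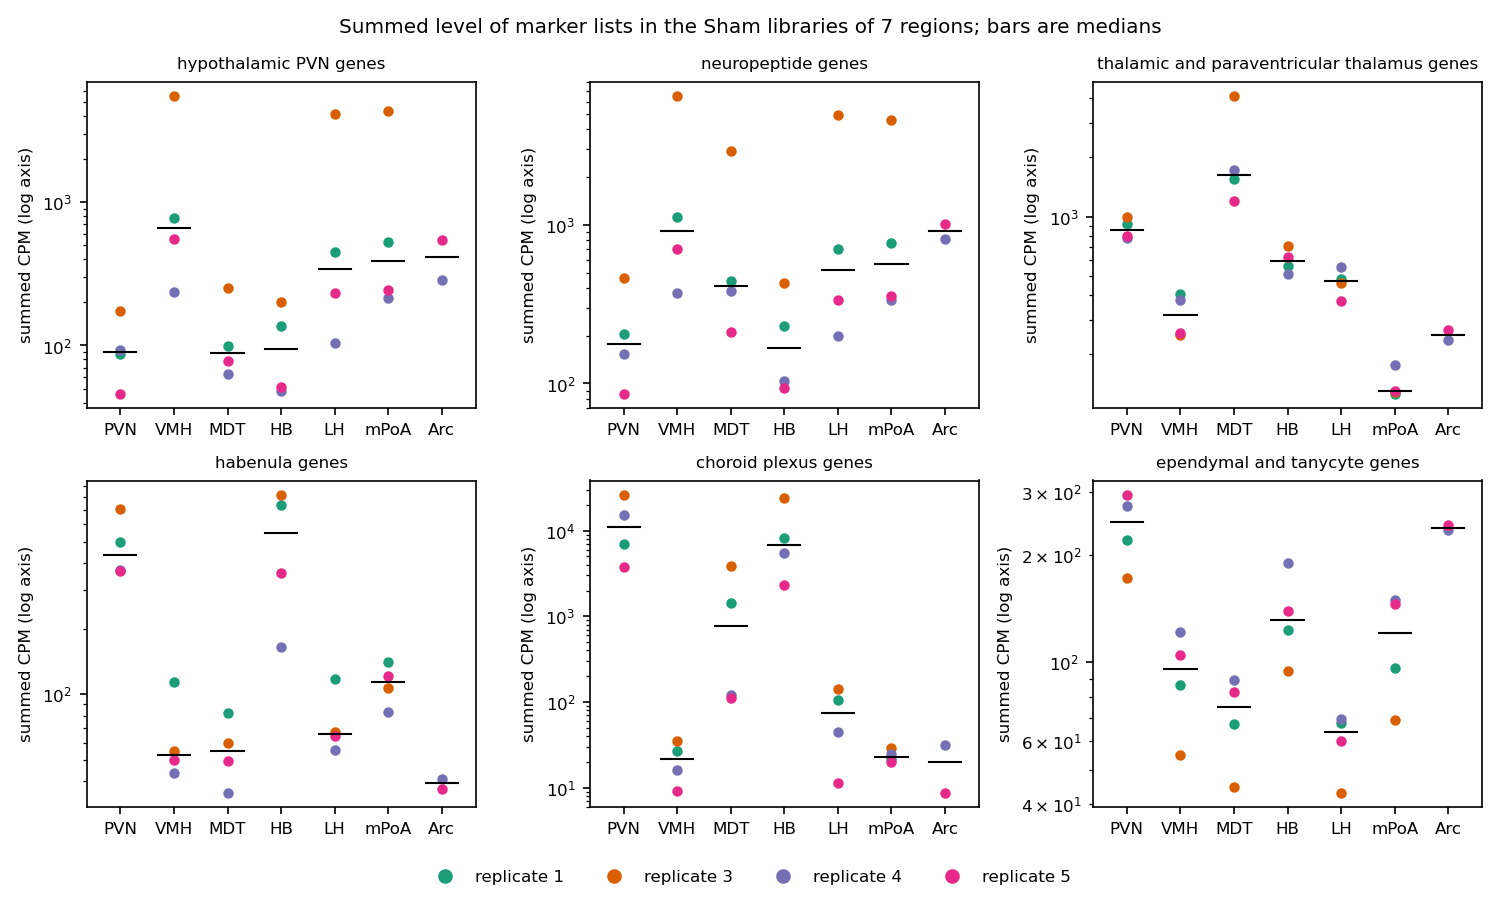
Summed CPM of the measured members of 6 marker lists (vertical axes, log scale) in every Sham library of 7 regions (horizontal axes), coloured by replicate number, with a bar at the median. PVN lies with HB for habenula and choroid plexus genes, between MDT and VMH for thalamic genes, and below VMH of the same replicate number for neuropeptide genes.

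Among the gene lists, which share members, that of neuropeptide genes had the most calls higher in VMH. Of 36 listed, 14 were tested, 9 were called higher in VMH (Avp, Oxt, Sst, Penk, Cartpt, Gal, Hcrt, Npvf and Cga) and 1, Cck, higher in PVN. Their median log2FC was -2.99. The summed level was 86.4 to 461 CPM in PVN and 372 to 6472 CPM in VMH, and 86.4 to 204 and 372 to 1129 CPM without replicate 3. In MDT it was 211 to 2917 CPM, and 211 to 441 CPM without replicate 3, ranges that overlap those of VMH. Vip, Nmb, Ghrl and Vgf did not pass.

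Avp encodes vasopressin, the hormone of water retention. Its level in PVN replicates 1, 3, 4 and 5 was 0.414, 7.57, 0 and 0.052 CPM, and in VMH 19, 1258, 10.8 and 10.1 CPM. Oxt, the hormone of milk ejection and parturition, was at 0.552, 25.1, 0 and 0 CPM in PVN and 12.6, 2482, 7.97 and 6.32 CPM in VMH. Replicate 3 was far above the other replicates in both regions for both genes, yet VMH exceeded PVN in each pair. Apart from the PVN library of replicate 3 for Oxt, the PVN values lay below every VMH value. The fit gave Avp (log2FC: -7.03 ± 0.40, adjusted p = 5.55e-06) and Oxt (log2FC: -6.32 ± 0.49, adjusted p = 3.93e-05). Without replicate 3 the log2FC was -6.44 for Avp (adjusted p = 0.00121) and -5.79 for Oxt (adjusted p = 0.00517). Without the block neither was called (adjusted p = 0.207 and 0.442). The 2 genes share a stretch of nearly identical coding sequence, so reads could be split between them or lost as not unique. The Sham libraries of PVN and VMH list 0 reads as not uniquely aligned, so such losses cannot be counted here. The separate values of Avp and Oxt are uncertain to that extent. Levels of both in replicate 3 were also high in LH (807 and 2297 CPM) and mPoA (189 and 3060.5 CPM).

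Npvf, the precursor of RFamide peptides that restrain gonadotropin release, is made by neurons around the dorsomedial nucleus just above VMH. PVN held 0, 0, 0.454 and 0.26 CPM and VMH 45.9, 32.5, 23.7 and 8.34 CPM, with no overlap (log2FC: -6.52 ± 0.58, adjusted p = 8.42e-05). Arc was higher still, at 103 to 104 CPM. Gal, the galanin precursor, was at 3.94, 2.12, 1.69 and 4.26 CPM in PVN and 131, 72.1, 38.3 and 77.9 CPM in VMH, again apart in every library (log2FC: -4.59 ± 0.22, adjusted p = 2.03e-06). Hcrt, the precursor of the orexins that sustain wakefulness, is a product of the lateral hypothalamus. Its VMH level was 108, 818, 10.3 and 21.9 CPM and its PVN level 26.6, 30.3, 0.389 and 1.25 CPM. The groups thus overlapped, while each VMH library exceeded the PVN library of its own replicate number (log2FC: -3.69 ± 0.47, adjusted p = 7.78e-04). Without the block Hcrt was not called (adjusted p = 0.433).

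Penk, the enkephalin precursor, stood at 56.5, 62.9, 24.6 and 23.6 CPM in PVN against 477, 451, 135 and 336 CPM in VMH and the groups did not overlap (log2FC: -3.01 ± 0.23, adjusted p = 3.94e-05). Sst, the somatostatin precursor, was at 16.5, 53.6, 3.5 and 5.93 CPM and 110.4, 380.4, 17.3 and 47 CPM. The pools differed widely and the groups overlapped, while the difference within pairs was even (log2FC: -2.68 ± 0.18, adjusted p = 1.75e-05). It was not called without the block (adjusted p = 0.384). Cartpt, an appetite-suppressing peptide precursor, was at 11.9, 22.7, 63.6 and 14.1 CPM in PVN and 151, 895, 60.7 and 148 CPM in VMH. It was lower in PVN in 3 of 4 pairs, with replicate 4 nearly level (log2FC: -3.11 ± 0.73, adjusted p = 0.0262), and its call was lost without replicate 3 (log2FC of -2.33, adjusted p = 0.13) and without the block (adjusted p = 0.128). Cga, the shared alpha subunit of the pituitary glycoprotein hormones, was at 7.32, 1.82, 1.43 and 1.04 CPM and 14.6, 9.17, 26 and 23.9 CPM (log2FC: -2.97 ± 0.59, adjusted p = 0.0109).

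The start regions of 5 of these peptide genes are shown as those of transcripts higher in VMH, each from 250 bases before the gene start to 50 after it, read 5′ to 3′ on the gene's strand. They come from RefSeq on the build GRCr8, whereas the counts were made on the older build rn5. The windows are Oxt (GRCr8 chr3:138235504-138235803, plus strand), Npvf (chr4:81046996-81047295, minus strand), Gal (chr1:210084523-210084822, minus strand), Hcrt (chr10:86191475-86191774, minus strand) and Cartpt (chr2:32991186-32991485, minus strand). Capitals mark AGGTCA, the core bound by nuclear receptors, in Oxt, TATAAA, the TATA box, in Npvf, Gal and Hcrt, and TGACGTCA, the cyclic AMP response element, in Cartpt, each searched on both strands.
Oxt: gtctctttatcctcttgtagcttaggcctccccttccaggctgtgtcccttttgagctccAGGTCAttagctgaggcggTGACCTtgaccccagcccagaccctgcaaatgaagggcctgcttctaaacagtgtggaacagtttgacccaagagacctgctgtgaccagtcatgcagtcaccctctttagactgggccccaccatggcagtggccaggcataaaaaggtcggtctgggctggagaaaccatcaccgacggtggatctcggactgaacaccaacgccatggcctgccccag
Npvf: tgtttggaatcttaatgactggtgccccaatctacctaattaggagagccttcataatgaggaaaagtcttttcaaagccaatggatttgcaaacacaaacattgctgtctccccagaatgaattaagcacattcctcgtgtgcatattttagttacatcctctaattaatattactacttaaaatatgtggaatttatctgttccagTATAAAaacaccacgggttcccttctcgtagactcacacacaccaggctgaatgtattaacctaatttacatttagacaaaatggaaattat
Gal: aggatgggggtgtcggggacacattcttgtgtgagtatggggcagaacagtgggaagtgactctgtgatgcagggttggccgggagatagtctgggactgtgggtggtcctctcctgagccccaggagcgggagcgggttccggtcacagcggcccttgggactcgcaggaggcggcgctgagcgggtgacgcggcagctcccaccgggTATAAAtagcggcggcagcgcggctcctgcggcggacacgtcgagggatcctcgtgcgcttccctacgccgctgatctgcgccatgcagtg
Hcrt: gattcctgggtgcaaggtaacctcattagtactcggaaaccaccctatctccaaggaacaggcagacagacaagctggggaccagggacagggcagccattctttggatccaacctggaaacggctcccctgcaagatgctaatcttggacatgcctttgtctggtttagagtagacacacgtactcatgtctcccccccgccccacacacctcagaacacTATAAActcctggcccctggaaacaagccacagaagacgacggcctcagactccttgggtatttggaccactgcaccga
Cartpt: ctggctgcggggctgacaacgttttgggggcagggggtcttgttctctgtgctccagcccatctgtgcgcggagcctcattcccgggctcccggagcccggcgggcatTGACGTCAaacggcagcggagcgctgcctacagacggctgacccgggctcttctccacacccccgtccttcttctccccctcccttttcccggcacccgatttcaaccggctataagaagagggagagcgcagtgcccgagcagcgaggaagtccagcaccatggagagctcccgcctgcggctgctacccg
Oxt holds its motif 2 times, the first on the plus and the next on the minus strand, and the other 4 windows hold theirs 1 time. The TATA letters begin 42 bases before the gene start in Npvf, 41 in Gal and 29 in Hcrt. Among the 12 named genes with the largest differences towards VMH, 11 have a start region in the RefSeq table and 6 of these (54.5%) contain TATAAA, namely Gal, Asb4, Npvf, Cga, Hcrt and Gpr165. It is 2 of 10 on the side of PVN (Krt8 and Kcnj13) and 14.2% of all 33469 start regions. These counts take TATAAA anywhere in the window and on either strand, not only at the position of a TATA box. AGGTCA occurs in 2 of the 11 on the side of VMH and 2 of the 10 on the side of PVN, beside 16.2% of all. TGACGTCA occurs in 1 of 11 (Sst) and 1 of 10 (Mlf1), beside 1.83%. Cartpt is not among the 12 genes. Each window above is marked for 1 motif that it holds, so the marks themselves are no measure of frequency. Motif matches are a description of letters, not of binding.

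**Figure D3:**
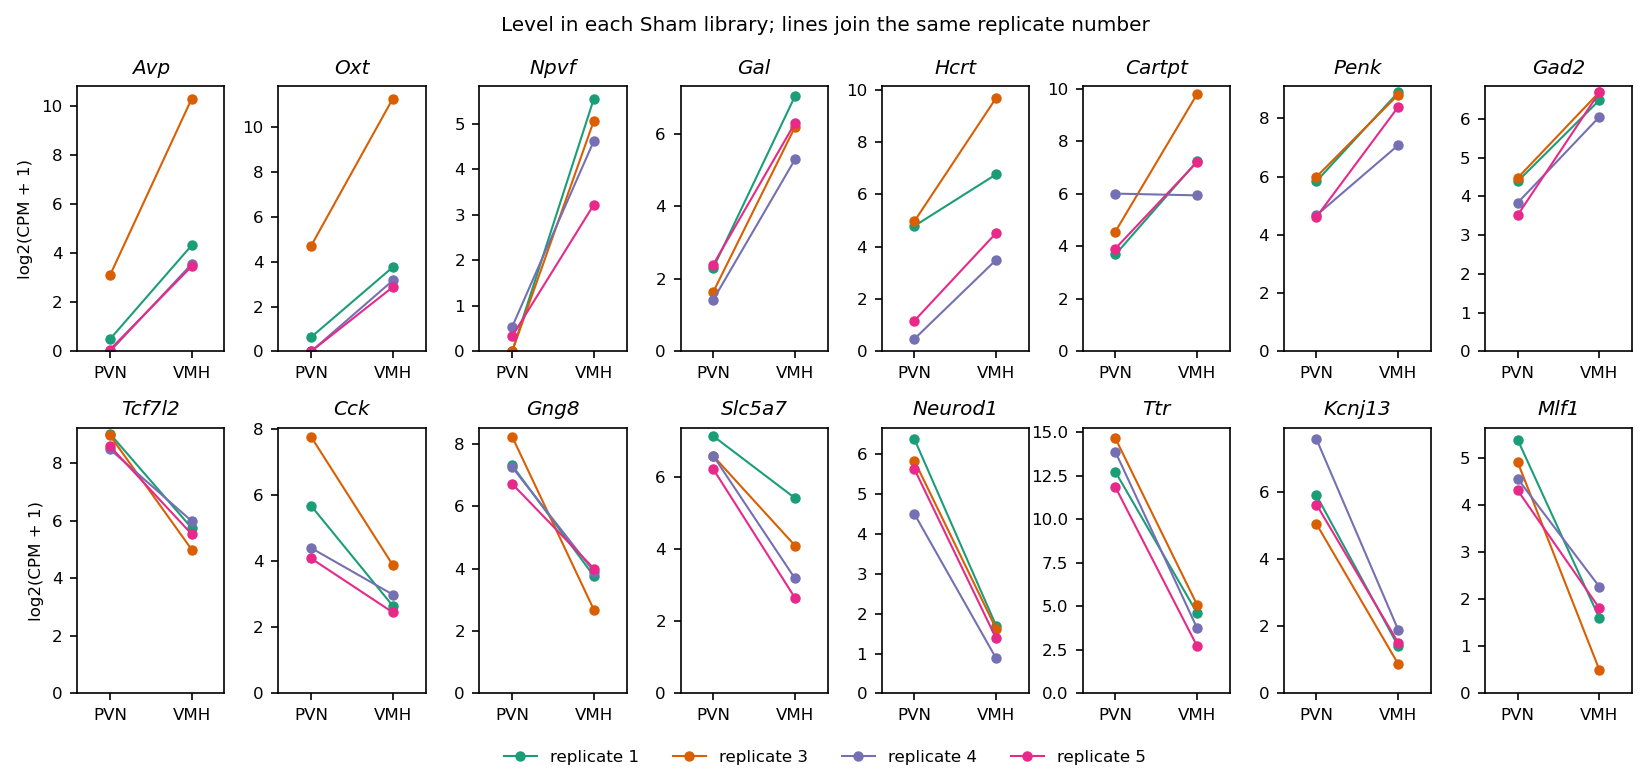
Level of 16 genes as log2(CPM + 1) (vertical axes, each scaled to its gene) in Sham PVN and Sham VMH, with lines that join the libraries of the same replicate number. All 4 lines rise towards VMH in the upper row, save that of replicate 4 for Cartpt, and all 4 fall towards VMH in the lower row.

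Among 43 other hypothalamic genes, 12 were tested and 8 called higher in VMH, with a median log2FC of -2.34. Besides Npvf, Gal, Hcrt and Cartpt these were Th, Arhgap36, Asb4 and Ndn. Th, the rate-limiting enzyme of catecholamine synthesis, was at 4.97, 4.24, 11.9 and 2.7 CPM in PVN and 22.1, 19.6, 18.2 and 28.8 CPM in VMH (log2FC: -2.0 ± 0.40, adjusted p = 0.0116). Arhgap36, an inhibitor of protein kinase A, was at 3.94, 4.54, 0.908 and 1.35 CPM and 14.7, 12.5, 15 and 24.8 CPM (log2FC: -2.88 ± 0.47, adjusted p = 0.00351). For Th and Arhgap36 alike, every VMH library lay above every PVN library. Snurf, from the imprinted Snrpn locus, did not pass (log2FC: -0.14 ± 0.20, adjusted p = 0.747), and Slc6a3, Ucn and Rln3 fell below the filter on counts. Asb4, a ubiquitin ligase adaptor, was low in both regions and had a log2FC of -2.69 (adjusted p = 0.00189). Gpr165, an orphan receptor gene, had log2FC of -2.64 ± 0.45 and edgeR adjusted p = 0.00479.

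Of the 26 VMH genes listed, Cbln1 alone had an identifier. Cbln1 encodes a secreted organiser of synapses. It was at 104, 67.1, 58.8 and 58.7 CPM in VMH and 16.9, 21.2, 28.8 and 17.8 CPM in PVN, without overlap (log2FC: -1.71 ± 0.23, adjusted p = 0.00101). MDT held 47.5 to 136 CPM, a range that covers that of VMH (58.7 to 104 CPM). The named transcripts thus hold no defining marker of VMH.

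Of 6 genes of transmitter identity tested, Slc5a7 was called higher in PVN, Gad2, Slc6a11 and Th were called lower, and Slc17a6 and Slc6a7 did not pass, at a median log2FC of -0.72. Gad2, which makes GABA, was at 19.9, 21.2, 13.2 and 10.4 CPM in PVN and 88.2, 102, 65.2 and 102 CPM in VMH (log2FC: -2.46 ± 0.22, adjusted p = 9.41e-05). The highest PVN library was below the lowest VMH library by a wide margin. The GABA transporter Slc6a11, which is counted again in the list of astrocyte genes below, was lower in PVN (log2FC: -1.28 ± 0.21, adjusted p = 0.00312). Slc17a6 was at 299, 233, 368 and 328 CPM in PVN and 324, 185, 276 and 173 CPM in VMH, with overlapping groups. Slc6a7, the brain proline transporter, did not pass (log2FC: -0.16 ± 0.33, adjusted p = 0.819).

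On the side of PVN, Tcf7l2, the Wnt pathway effector that marks thalamus and habenula, was at 515, 494, 355 and 382 CPM against 52.5, 30.8, 62.2 and 45.1 CPM in VMH (log2FC: 3.25 ± 0.24, adjusted p = 3.21e-05). The regions did not overlap. MDT held 507 to 1147 CPM, HB 263 to 379 CPM and mPoA 22.4 to 28.6 CPM. Cck, the cholecystokinin precursor, which paraventricular thalamic neurons also express, was at 50.1, 216, 20.1 and 16 CPM in PVN and 5.26, 13.8, 6.94 and 4.47 CPM in VMH (log2FC: 2.65 ± 0.37, adjusted p = 0.0013), and in MDT at 73.7 to 2491 CPM. Without the block its adjusted p was 0.106.

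The remaining thalamic genes differed less. Plekhg1, a guanine nucleotide exchange factor, and Necab1, a neuronal calcium-binding protein, were higher in PVN in all 4 pairs, with Plekhg1 (log2FC: 1.73 ± 0.45, adjusted p = 0.0403) and Necab1 (log2FC: 1.73 ± 0.45, adjusted p = 0.0396). Both calls were lost without replicate 3 (adjusted p = 0.159 and 0.158), and that of Necab1 also without replicate 5 (0.12). Rora, a nuclear receptor of thalamic relay neurons, was at 14.2, 24.2, 12.2 and 16.4 CPM in PVN and 7.59, 6.25, 8.93 and 9.24 CPM in VMH (log2FC: 1.00 ± 0.25, adjusted p = 0.032). Its call was lost without replicate 3 (0.117) and without replicate 5 (0.116). Drd2, the D2 dopamine receptor and a marker of part of the paraventricular thalamus, went the other way, at 3.04, 0.908, 3.37 and 3.95 CPM in PVN and 10.5, 7.92, 7 and 8.1 CPM in VMH (log2FC: -1.44 ± 0.33, adjusted p = 0.0241).

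Genes of the habenula, the nucleus lateral to the paraventricular thalamus, were higher in PVN. All 3 members tested of 18 listed, Gng8, Slc5a7 and Necab2, were called, with a median log2FC of 2.96. Gng8, a G protein gamma subunit of medial habenula, was at 158, 299, 152 and 104 CPM in PVN and 12.6, 5.42, 14 and 15 CPM in VMH (log2FC: 3.77 ± 0.36, adjusted p = 1.13e-04). Slc5a7, the choline transporter of cholinergic neurons, was at 141, 95.9, 96.1 and 74.3 CPM and 42, 16.3, 8.15 and 5.3 CPM (log2FC: 2.96 ± 0.31, adjusted p = 2.10e-04). Necab2 was at 199.7, 309, 125 and 189 CPM and 58.9, 33.3, 21.5 and 30.0 CPM (log2FC: 2.57 ± 0.21, adjusted p = 4.58e-05). No PVN library of these 3 genes overlapped a VMH library. Libraries labelled HB held 74.6 to 519 CPM of Gng8, 20.3 to 97.7 CPM of Slc5a7 and 70.4 to 360.1 CPM of Necab2, ranges that overlap those of PVN, while MDT held 9.79 to 22.3, 2.48 to 9.67 and 22.2 to 49.9 CPM. Neurod1, a neuronal transcription factor kept in the list of cortex and hippocampus, had the same distribution, at 82.4, 56.3, 21.7 and 48.6 CPM in PVN, 2.26, 2.08, 0.845 and 1.61 CPM in VMH (log2FC: 4.99 ± 0.22, adjusted p = 1.78e-06) and 14.5 to 45.3 CPM in HB.

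Genes of the choroid plexus, the epithelium that makes cerebrospinal fluid, gave the 4 largest differences towards PVN among the named genes. All 4 tested of 10 listed were called higher in PVN, with a median log2FC of 6.10. Ttr, the thyroid hormone carrier and most abundant transcript of this epithelium, was at 6763, 25638, 15023 and 3683 CPM in PVN and 23.5, 32.9, 12.4 and 5.54 CPM in VMH (log2FC: 9.39 ± 0.43, adjusted p = 1.78e-06). It took between 0.584% and 2.09% of all counts of a PVN library. Kcnj13, an inward rectifier potassium channel, was at 58.7, 32.1, 189 and 48.5 CPM and 1.65, 0.833, 2.72 and 1.85 CPM (log2FC: 5.42 ± 0.28, adjusted p = 3.31e-06). Sostdc1, a secreted inhibitor of BMP and Wnt signals, and Mfrp, a frizzled-related membrane protein, were between 28.5 and 81 CPM in PVN and at most 1.05 CPM in VMH, with Sostdc1 (log2FC: 6.26 ± 0.34, adjusted p = 4.74e-06) and Mfrp (log2FC: 5.93 ± 0.26, adjusted p = 1.76e-06). The summed level of the list was 3804 to 25779.5 CPM in PVN, 9.06 to 35 CPM in VMH, 2299.9 to 23853 CPM in HB and 113 to 3908 CPM in MDT. Without replicate 3 its highest values were 15290.4 CPM in PVN, 8120.5 CPM in HB and 1426 CPM in MDT.

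Genes of ciliated ventricle lining moved the same way. Of 7 ependymal genes tested of 16 listed, 6 were called higher in PVN and none lower, and the median log2FC was 1.83. Mlf1 was at 40.7, 29.1, 22.5 and 18.8 CPM in PVN and 2.03, 0.417, 3.8 and 2.5 CPM in VMH (log2FC: 3.50 ± 0.39, adjusted p = 2.95e-04). Mns1, needed for motile cilia, had log2FC of 2.23 ± 0.22 and edgeR adjusted p = 1.42e-04, Riiad1 log2FC of 2.10 ± 0.21 and edgeR adjusted p = 1.72e-04, and the axonemal gene Tekt1 log2FC of 1.83 ± 0.31 and edgeR adjusted p = 0.00471. Ccdc39, which assembles dynein arms, did not pass (log2FC: 0.27 ± 0.21, adjusted p = 0.503). The list summed to 172 to 294 CPM in PVN and 55 to 122 CPM in VMH (86.3 to 122 CPM without replicate 3). It was 235 to 242 CPM in the 2 Arc libraries, inside the range of PVN, and 94.3 to 191 CPM in HB. MDT held 44.7 to 89.1 CPM, LH 43.1 to 69.4 CPM and mPoA 68.8 to 149 CPM. Ventricle, plexus and habenula genes thus rose beside every gene group higher in PVN, and the part of such neighbouring tissue in those groups was not tested.

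Further large differences towards PVN included Scgb1c1, a secretoglobin gene (log2FC: 3.68 ± 0.42, adjusted p = 3.64e-04), the epithelial keratin Krt8 (log2FC: 3.26 ± 0.43, adjusted p = 9.98e-04), Cpne9, a copine that binds phospholipid in the presence of calcium (log2FC: 3.12 ± 0.21, adjusted p = 2.10e-05), and Cacnb3, an auxiliary subunit of voltage-gated calcium channels (log2FC: 3.05 ± 0.24, adjusted p = 4.13e-05). Cpne9 was at 144, 192, 139.5 and 267 CPM in PVN and 19, 12.1, 22.9 and 33.1 CPM in VMH. Cacnb3 was at 248, 435, 97 and 155 CPM and 20.4, 42.5, 18.6 and 23.7 CPM. All 4 genes were apart in the 8 libraries. Igfbp2, a carrier of insulin-like growth factors found in meninges and choroid plexus, was at 61.4, 175, 76.9 and 46.9 CPM in PVN and 13.5, 14.6, 7.73 and 6.44 CPM in VMH (log2FC: 3.0 ± 0.22, adjusted p = 2.95e-05).

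Receptor and channel genes differed in some members, in both directions. Of 6 GABA-A and glycine receptor subunits tested, Gabrd was called higher in PVN, Gabrg1 and Glra1 lower, and the median log2FC was -0.42. Gabrd encodes the delta subunit of extrasynaptic receptors, which carry tonic inhibition in thalamus. It was at 34.2, 36.6, 16.3 and 11 CPM in PVN and 2.41, 3.75, 3.44 and 2.09 CPM in VMH, without overlap (log2FC: 2.94 ± 0.32, adjusted p = 2.33e-04). Gabrg1 was at 18.4, 27.5, 18.4 and 20.0 CPM and 31.4, 72.5, 44.4 and 42.1 CPM (log2FC: -1.07 ± 0.19, adjusted p = 0.00499). Glra1, a glycine receptor subunit, was low in both (log2FC: -1.60 ± 0.43, adjusted p = 0.0485), and its call was lost without replicate 3 (adjusted p = 0.18) or 5 (0.246). Gabrb1 and Gabrb2 did not pass, with log2FC of -0.44 and -0.01.

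Of 7 glutamate receptor genes tested, 2 were called higher in PVN and 1 lower, at a median log2FC of -0.04. The higher ones were Grm4, a metabotropic receptor (log2FC: 0.99 ± 0.25, adjusted p = 0.0388), and Grin2c, an NMDA receptor subunit (log2FC: 0.91 ± 0.22, adjusted p = 0.0291), and the lower one was Grid1, a delta receptor that binds cerebellins (log2FC: -1.47 ± 0.31, adjusted p = 0.0143). Grin2c lost its call without replicate 5 (adjusted p = 0.15), and Grm4 without replicate 1, 3 or 5 (0.103, 0.125 and 0.19). Of 19 ion channel genes tested, 5 were called and 14 did not pass, beside 14.5% of named and 12.5% of all transcripts called. Cacnb3 and Kcng4 were among those called higher in PVN, and Kcns3 and Kcnk9 were called lower. The potassium channel subunit Kcng4 had log2FC of 0.90 ± 0.19 and edgeR adjusted p = 0.0157, and its call was lost without replicate 5 (adjusted p = 0.12). Those of Kcns3 and Kcnk9 were lost without replicate 3 (0.139 and 0.2) and without replicate 5 (0.204 and 0.105).

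In the list of hormone and growth factor receptors, 2 of 10 tested were higher in PVN and 2 lower, with a median log2FC of -0.25. Npr1, the receptor for atrial natriuretic peptide, was at 30.7, 23.6, 21.3 and 26.8 CPM in PVN and 11.5, 10.4, 9.78 and 9.95 CPM in VMH (log2FC: 1.35 ± 0.19, adjusted p = 0.00146), and Rora is described above. Tacr3, the neurokinin B receptor (log2FC: -0.94 ± 0.26, adjusted p = 0.0546), and Ntrk2, the receptor for BDNF (log2FC: -0.78 ± 0.21, adjusted p = 0.0435), were higher in VMH. Tacr3 lost its call without replicate 3 (adjusted p = 0.174) or 4 (0.113) and Ntrk2 without replicate 1 (0.111) or 5 (0.17). Ednrb and Thra did not pass. Of 3 monoamine, acetylcholine and adenosine receptors tested, Drd2 alone was called, and Chrnb2 and Adora2a were not.

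Peptide processing genes split in both directions. Of 8 transcripts tested, Pcsk2, a convertase of peptide precursors, was called higher in PVN (log2FC: 0.80 ± 0.24, adjusted p = 0.0681), the granule protein Chga (log2FC: -1.07 ± 0.26, adjusted p = 0.0284) and the vesicle protein Syt4 (log2FC: -0.65 ± 0.17, adjusted p = 0.0434) lower, and 5 did not pass, with a median log2FC of -0.10. Chga lost its call without replicate 3 or 5 (adjusted p 0.139 to 0.142), and Pcsk2 (0.16 to 0.254) and Syt4 (0.122 to 0.196) without replicate 1, 3 or 5. Ptprn, a granule membrane protein, did not pass (log2FC: -0.47 ± 0.17, adjusted p = 0.135), and Pcsk1n is represented by 2 transcripts of the same symbol, neither of them called. Without replicate 3 none of the 8 was called, where 3 were with all pairs, and 5 had an unadjusted p under 0.05 with all pairs.

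Genes known from cortex, hippocampus and striatum split in both directions. Of 13 cortical and hippocampal genes tested, 3 were called higher in PVN and 3 lower, at a median log2FC of -0.39. Neurod1, the synaptic zinc transporter Slc30a3 (log2FC: 1.66 ± 0.32, adjusted p = 0.00921) and the pentraxin receptor Nptxr (log2FC: 1.4 ± 0.22, adjusted p = 0.0029) were higher. The calcium sensor Hpca (log2FC: -2.06 ± 0.26, adjusted p = 7.86e-04), the membrane protein Lamp5 (log2FC: -1.34 ± 0.24, adjusted p = 0.00626) and the adhesion protein Icam5 (log2FC: -1.27 ± 0.40, adjusted p = 0.0862) were lower, and the call of Icam5 was lost without replicate 1, 3 or 5 (adjusted p 0.173 to 0.203). Of 7 striatal genes tested, Syndig1l (log2FC: 2.69 ± 0.18, adjusted p = 1.75e-05) and Ppp1r1b, the dopamine-regulated phosphatase inhibitor DARPP (log2FC: 2.12 ± 0.18, adjusted p = 5.37e-05), were higher in PVN, and Drd2, Penk and Rasd2 lower. Rasd2 (log2FC: -0.62 ± 0.19, adjusted p = 0.0746) was called with all pairs but not without replicate 1, 4 or 5 (adjusted p 0.117 to 0.215).

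Over the lists of oligodendrocyte, microglial and astrocyte genes 3 of 32 (9.38%) were called, beside 12.5% of all transcripts, and 11 of 32 (34.4%) had an unadjusted p under 0.05 in edgeR, beside 22.4%. None of 14 oligodendrocyte genes was called, with a median log2FC of -0.21, and Opalin had log2FC of -0.37 ± 0.15 and edgeR adjusted p = 0.172. By edgeR 4 of the 14 had an unadjusted p under 0.05, DESeq2 called 0, and a joint fit of the 16 Sham and FT libraries called 2. edgeR and DESeq2 also called 0 of 6 microglial genes, with 0 at an unadjusted p under 0.05 in edgeR and a median of -0.30, and the complement gene C1qa was at 37.1, 50.8, 15.8 and 17.1 CPM in PVN and 35.6, 48.8, 16.5 and 17.9 CPM in VMH. Of 12 astrocyte genes, 3 were higher in VMH and none in PVN, at a median of -0.42. These were the amino acid transporter Slc7a10 (log2FC: -1.09 ± 0.26, adjusted p = 0.0287), Slc6a11 and Agt, the angiotensin precursor (log2FC: -0.67 ± 0.19, adjusted p = 0.0562). Slc7a10 was not called without replicate 3 (adjusted p = 0.102), and Agt was not called when any 1 of the 4 replicates was left out (adjusted p 0.111 to 0.203). Apoe was at 703, 14185, 316 and 393 CPM in PVN and 571, 16572, 289 and 293 CPM in VMH, high in replicate 3 of both.

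Of 9 vascular and meningeal genes, Igfbp2 and Ogn, an extracellular proteoglycan of meninges (log2FC: 1.24 ± 0.23, adjusted p = 0.00761), were higher in PVN and Heyl, a Notch target of vessel walls (log2FC: -0.97 ± 0.18, adjusted p = 0.00793), was lower. Hbb-b1, a beta globin gene and a sign of blood, was called higher in PVN (log2FC: 0.80 ± 0.24, adjusted p = 0.0675) and its close copy Hbb was not (log2FC: 0.37 ± 0.22, adjusted p = 0.376). Reads of these copies may be exchanged, and the call of Hbb-b1 was lost without replicate 3, 4 or 5 (adjusted p 0.113 to 0.172). The immediate early gene Fos, which follows recent neuronal activity, was at 24, 20.0, 4.41 and 16.7 CPM in PVN and 21.6, 15.4, 13.3 and 17.1 CPM in VMH (log2FC: -0.22 ± 0.31, adjusted p = 0.734). Of the 3 such genes tested, Cyr61 was called (log2FC: 1.52 ± 0.41, adjusted p = 0.046), at no more than 5.96 CPM, and not without replicate 4 or 5 (adjusted p 0.148 to 0.165).

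Transcripts without a symbol also reached the largest differences. ENSRNOT00000055270 was at 7.18, 14.2, 31.5 and 7.7 CPM in PVN with 0, 0, 1 and 0 counts in the VMH libraries, and ENSRNOT00000025465 at 4.42, 3.63, 3.18 and 1.51 CPM in PVN with 0 counts in every VMH library. On the side of VMH, ENSRNOT00000010019 was at 22, 28.8, 7.61 and 3.58 CPM in VMH and 0.069, 0, 0.0648 and 0.208 CPM in PVN, and ENSRNOT00000057010 at 14.2, 7.08, 8.45 and 8.88 and 0.069, 0, 0.389 and 0.156 CPM. The adjusted p of these 4 ran from 4.25e-06 to 0.00146.

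The contrast was then taken in the FT rats, whose 8 PVN and VMH libraries come from other animals and share none with Sham. The study handled the Sham and FT samples of a replicate number side by side, so processing is shared between the treatments. Replicate 3 stood apart in FT too. Its 50 most abundant transcripts took 65.1% of counts in PVN and 62.7% in VMH, against 26.1% to 29.7% in the other FT libraries. Of 13436 transcripts tested, 2301 (17.1%) were called, 1313 (9.77%) higher in PVN and 988 (7.35%) higher in VMH. Of the 1727 Sham calls, 1668 were tested in FT and 1663 (99.7%) had the same direction, beside 76.7% of the 13170 transcripts tested in both. In the same direction 1300 were called again, which is 75.3% of the Sham calls and 56.5% of the FT calls, and none was called in the opposite direction. Without the block, FT gave 294 calls.

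The peptide genes were again higher in VMH in FT. Avp was at 2.49, 90.8, 0.198 and 0.124 CPM in FT PVN and 148, 13234, 31.9 and 33.8 CPM in FT VMH, and Oxt at 1.88, 275, 0 and 0.0622 and 41.9, 15245, 10.8 and 10.4 CPM. Replicate 3 was again the highest in both regions. The FT fits gave Avp (log2FC: -6.81 ± 0.33, adjusted p = 1.09e-07), Oxt (log2FC: -5.57 ± 0.40, adjusted p = 1.97e-06), Npvf (log2FC: -8.49 ± 0.35, adjusted p = 4.36e-08) and Cartpt (log2FC: -5.02 ± 0.23, adjusted p = 6.58e-08). Cartpt, which had 1 level pair in Sham, was lower in FT PVN in all 4 pairs. Of the hypothalamic PVN list, 5 of 6 were called lower in PVN here too, with a median log2FC of -4.24.

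The thalamic list gave 5 higher and 1 lower of 7 in FT (median 1.30), habenula 3 of 3 higher (median 3.28), choroid plexus 4 of 4 higher (median 7.59) and ependyma 7 of 7 higher (median 1.84), beside -0.02 over all transcripts. Ttr was at 25654, 120902, 6911 and 9149.9 CPM in FT PVN and 55, 119, 4.67 and 4.44 CPM in FT VMH (log2FC: 10.07 ± 0.48, adjusted p = 1.05e-07), with a spread between PVN libraries wider than in Sham. Tcf7l2 had log2FC: 3.20 ± 0.26, adjusted p = 5.48e-06, close to its Sham value. Among the named genes 22 Sham calls were lost when 1 replicate was left out, of which 21 were tested in FT and 17 were called again in the same direction. The others, Rasd2, Icam5, Agt and Kcns3, were not called in FT (adjusted p = 0.405, 0.345, 0.208 and 0.267).

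**Figure D4:**
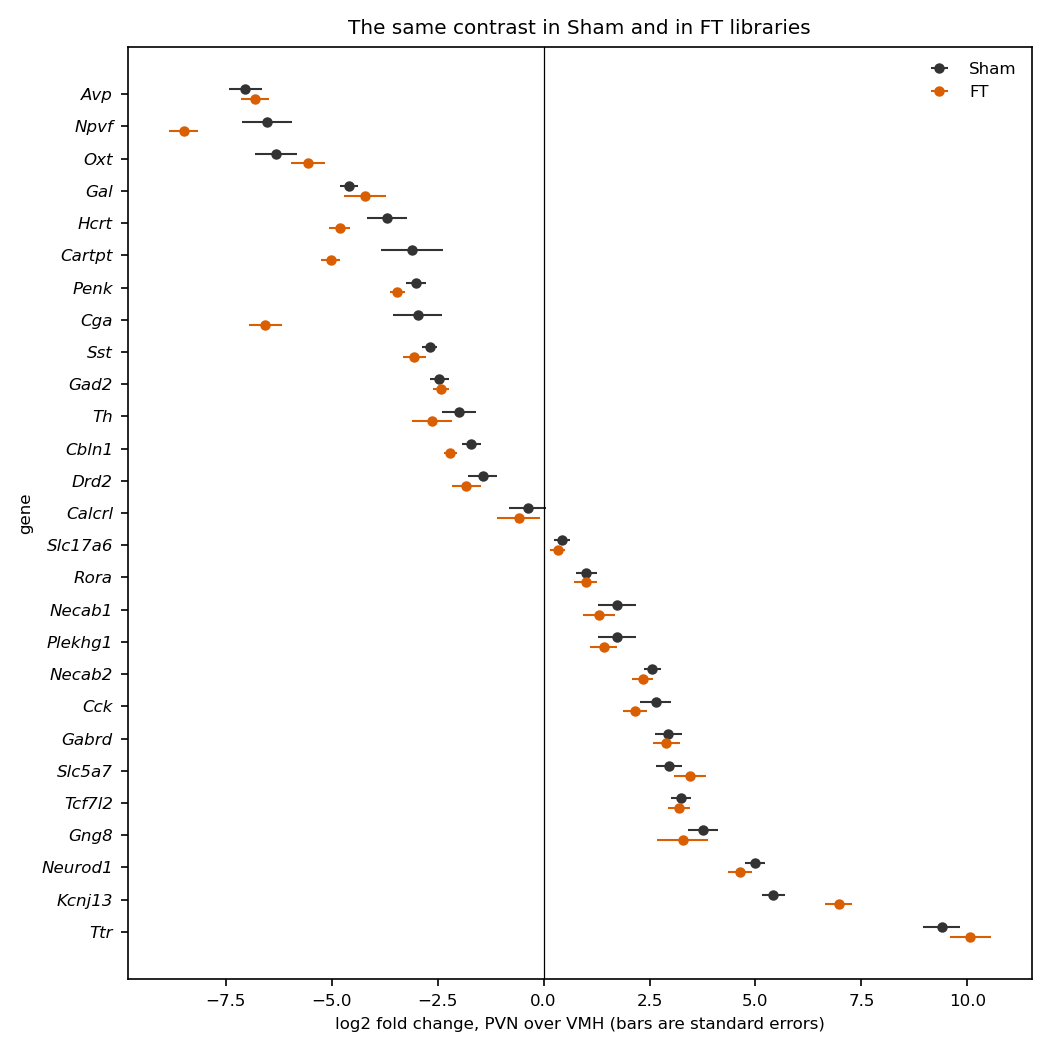
Log2 fold change of PVN over VMH (horizontal axis, bars are standard errors) for named genes (vertical axis) in Sham and in FT. Both treatments lie on the same side of 0 for every gene plotted, and Cga shows the widest gap between treatments.

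Whether the difference between PVN and VMH depended on treatment was tested as an interaction over all 16 libraries. edgeR called 0 of 14709 transcripts, with 282 at an unadjusted p under 0.05, and DESeq2 called 0, with 255. In simulated counts with known changes, the interaction fit of edgeR called 22 of 100 2-fold and 80 of 100 4-fold changes. DESeq2 called 28 and 80. The absence of calls therefore cannot show that the region difference was the same in both treatments. Among the named genes the smallest unadjusted p was that of Cga, at 5.96e-04 (adjusted p = 1), whose log2FC was -2.97 in Sham and -6.56 in FT. Igfbp2 and Kcnj13 followed at 0.00235 and 0.00242.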

How the data were processed

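RNA from pooled punches was sequenced as paired reads of 76 bp from a stranded total RNA kit, although the labels give the molecule as polyA RNA. The authors aligned reads with STAR to rn5, counted them per Ensembl transcript with HTSeq and deposited raw counts without normalization (versions and strand setting are not given in the sources used here). Reads of overlapping or antisense transcripts may therefore be mixed, and reads shared by isoforms are ambiguous (3.27% to 6.93% in the Sham libraries). The 5 summary lines of each file were dropped, and reads outside annotated features came to 24.3% to 49.3%.

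edgeR 4.0.16 in R 4.3.3 was run on the counts of 29188 transcripts with TMM factors, filterByExpr (minimum count 10, minimum total 15), a quasi-likelihood test with replicate numbers as blocks. The same model was fitted to FT, and the interaction to all 16 libraries with a block for each replicate number within a treatment. Calls were made at an edgeR p of 0.1 or below after Benjamini-Hochberg adjustment over all transcripts tested, with a fold of at least 1.25. The standard error is the absolute log2FC over the square root of F. Deviations from group means of libraries with the same number correlated at 0.54 to 0.81 in Sham and 0.76 to 0.89 in FT. The highest r of a PVN library with a VMH library of another number was 0.43 in Sham (replicate 5). In FT it was 0.80 for replicate 5, above the 0.76 with its own number, and 0.73 for replicate 4. In FT the correlations alone thus do not set every pair apart. In the study's methods a replicate is a pool of animals for a region, and replicate numbers served as batches. They do not state that 1 number stands for the same animals in PVN and VMH. Numbers were used as pairs, which may share animals, processing or both. CPM on one TMM scale over the Sham libraries of 7 regions and the FT libraries gave the levels, with a prior count of 2 for logs. No replicates held the same counts (at most 5.69% equal values). Counting limits the precision for transcripts with few reads.

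The fits were first tested on simulated data. Alternatives were DESeq2 1.42.0, no block, median-ratio size factors, no filter, stricter thresholds, a joint fit of both treatments and each replicate left out. Names came from a table of the study (1844 of 29188 transcripts). Genes named are the 12 largest called differences in each direction that agree in all pairs, up to 4 called in each direction and 2 not called in each list, all measured members of the hypothalamic PVN, thalamic and VMH lists, and up to 2 transcripts in each direction without a symbol. A gene that the rule picks among the ion channels is not reported here. The gene lists and the contrast were chosen with earlier results of these data known. Python 3.11.15, numpy 2.4.6, pandas 2.3.3 and matplotlib 3.10.9 were used for tables and figures.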

Additional observations from a re-analysis of the deposited data

Results flagged for a closer look

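Within each group of 4 Sham libraries, the highest or lowest value was compared with its nearest neighbour by Dixon's test at 95%, over 278 groups of values (genes and lists on the log2 scale). 19 were marked, and chance alone marks about 1 in 20.

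Replicate 3 accounts for most. In VMH it was the extreme library for Avp (1258 CPM), Oxt (2482 CPM), Kcng4 (86.7 CPM), the calcium channel subunit Cacnb4 (33.8 CPM), Opalin (87.9 CPM), Apoe (16572 CPM), the summed ion channel genes (379 CPM) and the summed monoamine, acetylcholine and adenosine receptor genes (78.8 CPM). ENSRNOT00000025465 was marked there at 0 CPM, although all 4 VMH libraries have 0 counts and differ only through the scaling of the prior count. In PVN replicate 3 was extreme for Icam5 (8.17 CPM), Kcng4 (108 CPM), the summed astrocyte genes (19231 CPM), the summed monoamine, acetylcholine and adenosine receptor genes (71.4 CPM), its total of 5334038 counts and the 63.6% of counts in its 50 most abundant transcripts.

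The others were replicate 4 of PVN for Gabrb1 (13.6 CPM), Heyl (8.04 CPM) and the summed cortex and hippocampus genes (232 CPM), and replicate 1 of VMH for Syt4 (694 CPM). No named gene moved in opposite directions in all Sham and all FT pairs.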

How the results depend on the processing

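In Sham, DESeq2 (1949 calls) and median-ratio size factors (1716) gave call counts within 1.5 times the 1727 reported, while no block gave 376 (314 higher in PVN, 62 lower) and a 2-fold minimum 1027 (273 lower). Calls lower in PVN numbered 1159 without the filter, 424 at an adjusted p of 0.05 and 1219 in the joint fit, where 1181 were higher, so that the balance of calls turned towards VMH. Leaving out a replicate gave 866 to 2130 calls (561 to 1116 higher, 305 to 1014 lower). In FT, no block gave 294 (260 higher, 34 lower), a 2-fold minimum 1189 (287 lower), an adjusted p of 0.05 620 lower, and leaving out a replicate 1366 to 2117 calls (879 to 1234 higher, 487 to 883 lower). The interaction gave 12 calls without the filter and 0 to 1 with a replicate left out (1 without replicate 1), otherwise 0. The cause of these shifts was not tested, other than stricter thresholds.

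Of the 113 named transcripts none changed direction among calls. Not all of the 113 were called. The Sham calls among them were 22 that were lost without 1 replicate and 51 that were kept without each. DESeq2 and median-ratio factors changed no call of these, no block ended 38 calls, and leaving out replicate 1, 3, 4 or 5 ended 7, 17, 5 and 17. The 38 include Hpca (edgeR adjusted p without the block = 0.753), Grid1 (0.692), Slc6a11 (0.265), Slc30a3 (0.187) and Lamp5 (0.182). With replicate numbers as pairs, the block is the reported fit.

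Over all 16132 transcripts that pass the filter, r of PVN was 0.963 with VMH, 0.970 with MDT, 0.961 with LH, 0.965 with mPoA and 0.935 with Arc, and r of VMH 0.974 with MDT, 0.965 with HB, 0.990 with LH and 0.957 with Arc. Without replicate 3, r with Arc was 0.881 for PVN and 0.945 for VMH. HB stayed the highest for PVN and LH for VMH under both.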
